A study of Mus musculus with 20 samples.

Results

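Oxidative phosphorylation was examined through the nuclear genes of the respiratory chain and the ATP synthase. These were all rows whose symbol begins with Nduf, Uqcr, Atp5, Cox4, Cox5, Cox6, Cox7 or Cox8, together with Sdha, Sdhb, Sdhc and Sdhd, which gave 94 of 24972 gene symbols. They comprised 36 subunits of complex I, 4 of complex II, 8 of complex III, 18 of complex IV and 16 of complex V. The remaining 12 symbols were caught by the prefixes without being accepted core subunits: 8 complex I assembly factors (Ndufaf1 to Ndufaf8), the supercomplex factor Cox7a2l, Ndufa4l2, Atp5s and Ndufb4c, which GENCODE annotates as a processed pseudogene of Ndufb4. Ndufa4 was counted with complex IV. None of the 13 subunits encoded by mitochondrial DNA was found under its mt- symbol, so they were not analysed here.

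Libraries came from total liver of mice kept for 6 weeks on a control or an alcohol diet, and from RAW264.7 cells, an established mouse macrophage-like line. WT liver was sequenced in 4 libraries per diet and RageΔMye liver in 3 per diet, all labelled male. RAW264.7 cells received BSA (n = 3) or a complex of [O] HMGB1, an oxidised alarmin, with IL1β (n = 3) for 6 hours. RageΔMye is taken to mean loss in myeloid cells of the receptor RAGE, encoded by Ager. The labels give neither its allele nor the promoter that drives the deletion. Nothing in the labels says that replicates were separate animals or cultures, so the tests below measure the spread between these libraries, which may be technical. In bulk liver, fewer cells of a type and less RNA per cell cannot be told apart.

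The respiratory chain passes electrons from NADH (complex I) and succinate (complex II) through ubiquinone to complex III, cytochrome c and complex IV, which reduces oxygen. The proton gradient that complexes I, III and IV build drives ATP synthesis at complex V. Most subunits are encoded in the nucleus, and hepatocytes, which are rich in mitochondria, use the chain to reoxidise the NADH that alcohol and acetaldehyde oxidation produce. Assembly factors help to build a complex but are not part of the finished enzyme.

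Values are TPM, a level scaled for transcript length and set to the same total in every library. The 3 kinds of library did not look alike. The number of genes above 0 per library was 15113 to 15599 in WT, 7596 to 8502 for the RageΔMye label and 8630 to 9231 in RAW264.7. Genes with an exon overlapping a gene on the opposite strand held 15.4% to 18.3% of TPM in WT, and far more for the RageΔMye label (55.8% to 61.7%) and in RAW264.7 (56.0% to 58.9%). Ager was listed at 0.0194 to 0.478 TPM in WT and at 93.1 to 166 TPM in libraries labelled RageΔMye, against the direction of that label, and at 0 in RAW264.7. The diet groups in WT also differed in sex-linked transcripts. Xist lay at 0.00165 to 0.135 TPM with control feeding and at 17.8 to 27.3 TPM on alcohol, and 4 Y-linked genes summed to 11.3 to 16.6 TPM on control diet and to at most 0.0161 TPM on alcohol. Sex and diet therefore cannot be told apart in WT, although every library is labelled male. For the RageΔMye label the same Y-linked sum was 3.16 to 4.50 TPM on control diet and 0.276 to 1.74 TPM on alcohol, also without overlap. Xist did not differ in the manner of WT there. It lay at 0 to 3.10 TPM on control diet and at 0.322 to 0.990 TPM on alcohol, and the groups overlapped. All 12 hepatocyte markers were above 0 in every WT library and were at 0 in every RAW264.7 library, and 11 of the 12 were above 0 in every library of each RageΔMye group.

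In WT liver on control diet the respiratory genes were abundant. They held 1.67% ± 0.25 of all TPM (SD, n = 4), and on alcohol 1.71% ± 0.084 (SD, n = 4). Of the 94 genes, 60 averaged at least 100 TPM on control diet and 8 averaged below 1 TPM. Atp5b, the catalytic β subunit of the ATP synthase, had the highest mean of the group, at 663.6, 787, 870.1 and 799.9 TPM on control diet, although it did not lead in replicates 1 and 2. It was listed at 899, 1029, 885 and 852 TPM on alcohol, and the groups overlapped. Sdhc had the highest mean on control diet in complex II at 327 TPM, Uqcrq in complex III at 328 TPM and Cox4i1 in complex IV at 634 TPM. The median over a complex was 105 TPM for complex I, 291 TPM for complex II, 221 TPM for complex III, 204 TPM for complex IV and 286 TPM for complex V.

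**Figure D1:**
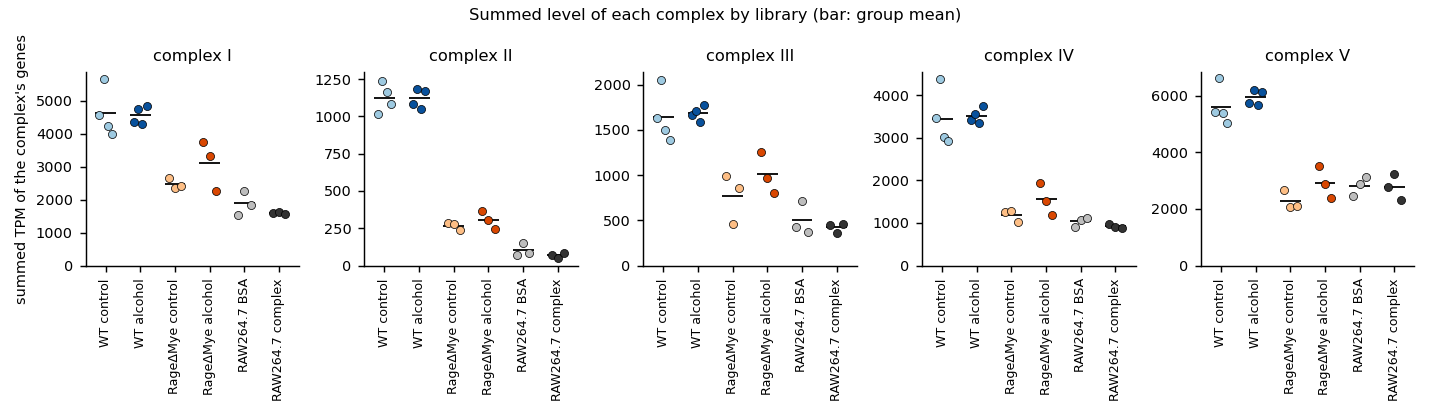
Summed TPM of the genes of each complex (y axes, linear and starting at 0) in each library, for the 6 groups on the x axes, with bars at the group means. In WT the control and alcohol libraries overlap in all 5 complexes, and libraries labelled RageΔMye and RAW264.7 libraries lie below the WT libraries in every panel.

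Summed over complex I, WT control libraries lay between 3999 and 5663 TPM and WT alcohol libraries between 4296 and 4830 TPM. Complex II summed to 1013 to 1239 TPM on control diet and 1050.4 to 1186 TPM on alcohol. For complex V the ranges were 5055 to 6615 TPM and 5684 to 6202 TPM. The diet groups overlapped in every complex, and control replicate 2 was the highest of the 8 WT libraries in each of them. This library stood out across the set: among the 86 genes tested, it was the highest control library for 78, against 3221 of the 9747 genes tested in all. It was further from the rest for short transcripts. For the 53 tested genes with a principal transcript under 1000 bases, the median log2 deviation of this library from the gene's mean over the 8 WT libraries was 0.35, and for the 33 longer ones 0.24, while over all genes tested it was 0.03. Control replicate 4 lay at -0.26 for the shorter and -0.12 for the longer transcripts.

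Few respiratory genes were called between diets in WT liver. Of 86 respiratory genes averaging 1 TPM or more in either group, 3 were called at an adjusted p under 0.05 (limma on log2(TPM + 1)): Cox7a1 rose, and the assembly factors Ndufaf1 and Ndufaf4 fell. Among all genes tested, 31.2% were called in this comparison, 13.3% higher and 17.9% lower. Groups that did not overlap were seen for the same 3 genes and for 30.8% of all genes tested. None of the subunits of complexes I, II, III and V was called. An unadjusted p under 0.05 was seen for 6 of the 86 genes and for 4193 of all 9747 genes tested. In a joint fit of all 14 liver libraries, which share 1 estimate of spread, Cox7a1 alone was called, and the adjusted p was 0.323 for Ndufaf1 and 0.661 for Ndufaf4. That fit called 4.83% of all genes.

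The narrow range of the effect can be read from the intervals. The median absolute log2 fold change was 0.08 over the 86 genes and 0.28 over all 9747 genes, while the median standard errors were alike at 0.14 and 0.14. The 95% interval lay within 1.5-fold in either direction for 78 of the 86 genes, or 90.7%, and for 47.1% of all genes tested. It lay within 2-fold for 84 of 86. Other gene lists were also narrow: within 1.5-fold lay 94.7% of TCA cycle, 85.2% of cytosolic ribosomal and 78.2% of mitochondrial ribosomal genes. The share was 50% for assembly factors outside the prefixes and 38.9% for regulators of mitochondrial biogenesis. By complex, the interval was within 1.5-fold for 33 of 36 genes in complex I, 4 of 4 in complex II, 8 of 8 in complex III, 11 of 12 in complex IV and 16 of 16 in complex V, and for 6 of the 10 other symbols. Median log2 fold changes were -0.03 in complex I, 0.01 in complex II, 0.02 in complex III, 0.03 in complex IV and 0.04 in complex V, beside -0.17 for the other symbols and -0.05 for all genes tested.

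**Figure D2:**
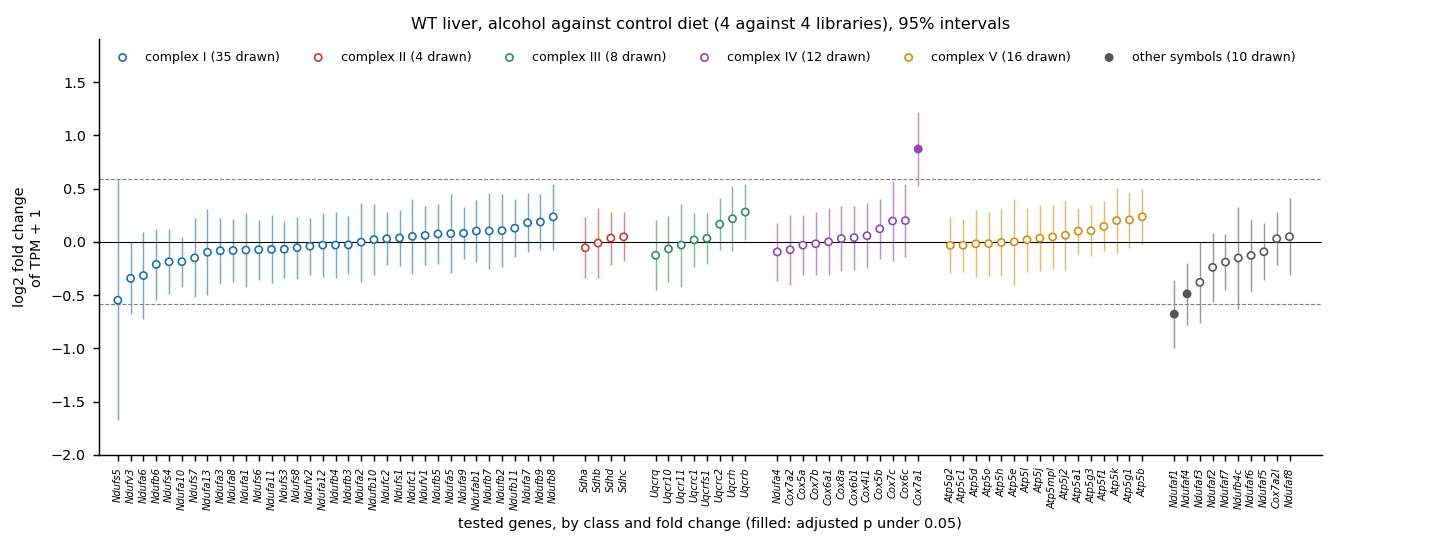
Log2 fold change of TPM + 1 in WT liver, alcohol against control diet (y axis), for the 86 tested respiratory genes, sorted within each class along the x axis, with 1 of them not drawn. Vertical lines are 95% intervals, dashed lines mark 1.5-fold, and filled points are the 3 genes called: Cox7a1 at 0.87, Ndufaf1 at -0.68 and Ndufaf4 at -0.49.

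Ndufaf1, an assembly factor of the membrane arm of complex I, was listed at 36.0, 40.8, 32.3 and 31.0 TPM with control feeding and at 19.1, 25.2, 17.8 and 24.2 TPM on alcohol in the 8 WT libraries. Every alcohol library lay below every control library. The means were 35.0 ± 4.4 and 21.6 ± 3.7 TPM (SD, n = 4 each), a log2 fold change of -0.68 (SE 0.14, adjusted p = 0.0062 by limma). The gene spans chr2:119655446-119662827 on the minus strand (GENCODE vM21, mm10).

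Ndufaf4, another complex I assembly factor, was listed at 5.84, 6.50, 6.52 and 4.94 TPM with control feeding and at 3.74, 4.05, 3.35 and 4.67 TPM on alcohol. The groups did not overlap, but the highest alcohol library was close to the lowest control library. Its log2 fold change was -0.49 (SE 0.13, adjusted p = 0.018 by limma). The call was lost without alcohol replicate 1, alcohol replicate 3 or control replicate 3 (adjusted p 0.0516, 0.0517 and 0.0507). The gene spans chr4:24898083-24905001 on the plus strand. Of all 8 Ndufaf genes tested, 2 were called lower (25%, against 17.9% of all genes tested) and none higher. Their median log2 fold change was -0.22, and 7 of the 8 values were below 0.

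Cox7a1 encodes the subunit VIIa isoform of complex IV typical of heart and skeletal muscle. Its level was 1.96, 2.73, 1.23 and 1.85 TPM with control feeding and at 4.31, 4.08, 3.94 and 4.89 TPM on alcohol, so that all 4 alcohol libraries exceeded all 4 control libraries. The log2 fold change was 0.87 (SE 0.16, adjusted p = 0.0028 by limma), which the added 1 TPM makes smaller than the ratio of the levels. Cox7a2, the isoform found in most tissues, was far more abundant, at 141 to 228 TPM on control diet and 158 to 183 TPM on alcohol, with a log2 fold change of -0.07 (SE 0.15, adjusted p = 0.73). Cox7a1 made up 0.747% to 1.30% of the summed TPM of the pair on control diet and 2.30% to 2.60% on alcohol. The gene spans chr7:30184144-30186078 on the plus strand.

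Several markers of other cells moved with diet in the same libraries. Of 11 leukocyte and macrophage markers tested in WT, 4 were called higher (36.4%, against 13.3% of all genes tested) and none lower, and the summed level of the 12 on the list was 118 to 156 TPM on control diet and 257 to 304 TPM on alcohol. Of 8 Kupffer cell markers none was called, and 3 of the 8 values were below 0. Among stellate and endothelial markers 4 of 9 were called higher (44.4%, against 13.3%) and none lower, with summed levels of 80.0 to 163 TPM and 184 to 215 TPM, and Dcn, a matrix proteoglycan of mesenchymal cells, changed by a log2 fold change of 0.71 (adjusted p = 0.019 by limma). Hepatocyte markers summed to 152185 to 170069 TPM on control diet and to 186249 to 206176 TPM on alcohol. Of these 12 markers 3 were called higher (25%) and none lower, 6 had values below 0 and the median log2 fold change was -0.01. Alb, at a mean of 101574 and 120624 TPM, made up most of the sum. Whether these shifts take part in the change of Cox7a1, Ndufaf1 or Ndufaf4 was not tested.

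**Figure D3:**
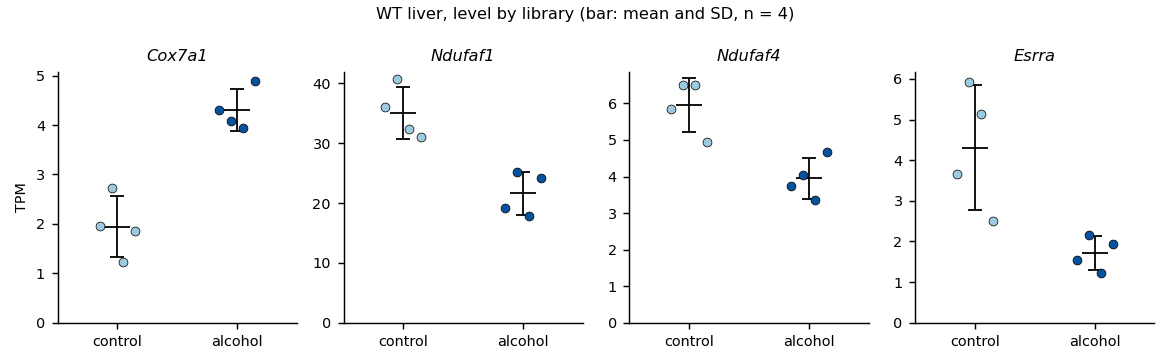
TPM (y axes, from 0) in the 4 control and 4 alcohol libraries of WT liver for Cox7a1, Ndufaf1, Ndufaf4 and the regulator Esrra. Points are libraries and bars give the mean and SD. In each panel the 4 alcohol libraries lie on one side of the 4 control libraries.

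The promoters of the 3 genes called are shown because they are the members that moved. Each is the 250 bases before the RefSeq start site (GRCm38.p6), written 5′ to 3′ on the gene's strand, with matches to 5 motifs in capitals. The motifs were the NRF1 core GCGCATGC, the ETS site CCGGAAG of GABP, YY1 AAGATGGC, the SP box GGGCGG and the ERR half-site AAGGTCA, each searched on both strands.
Ndufaf1, chr2:119662835-119663084, minus strand: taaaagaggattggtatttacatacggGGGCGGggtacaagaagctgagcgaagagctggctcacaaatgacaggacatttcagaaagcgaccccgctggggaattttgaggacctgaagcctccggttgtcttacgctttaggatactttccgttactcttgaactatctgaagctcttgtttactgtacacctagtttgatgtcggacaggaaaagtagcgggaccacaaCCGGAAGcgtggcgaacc
Ndufaf4, chr4:24897833-24898082, plus strand: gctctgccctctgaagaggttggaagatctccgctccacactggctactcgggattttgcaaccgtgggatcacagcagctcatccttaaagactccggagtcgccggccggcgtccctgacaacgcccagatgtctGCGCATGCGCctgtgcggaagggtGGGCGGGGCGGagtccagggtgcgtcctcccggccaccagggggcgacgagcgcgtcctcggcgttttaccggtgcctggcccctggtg
Cox7a1, chr7:30183921-30184170, plus strand: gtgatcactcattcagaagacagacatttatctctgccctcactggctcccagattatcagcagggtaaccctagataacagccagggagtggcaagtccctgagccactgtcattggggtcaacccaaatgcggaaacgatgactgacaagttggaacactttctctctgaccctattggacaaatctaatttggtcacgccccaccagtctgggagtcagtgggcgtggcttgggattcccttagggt
The Ndufaf1 window held an ETS match from base -18 to -12 before the start and an SP box from -223 to -218. In Ndufaf4 a pair of overlapping NRF1 core matches, one on each strand, ran from -113 to -104, and overlapping SP boxes from -89 to -79. No letters of the 5 motifs were found in the Cox7a1 window. Promoter records matched 74 of the 94 genes. Each of these gave 1 window, while the background counted every record of a gene. The median GC content was 56.4% in the members' windows and 52.4% over all records. Whether the motif shares below differ beyond this was not tested. The NRF1 core occurred in 9 of these 74 windows (12.2%) and in 2.26% of 32851 promoter records of the same length, and the ETS site in 13 (17.6%) and 6.91%. The ERR half-site occurred in 5 windows (6.76% against 4.08%) and the SP box in 28 (37.8% against 32.7%). YY1 letters occurred in none of the 74 windows (1.56% of all records), but in 9 of the 74 (12.2% against 2.75%) when the 50 bases after the start were included. Genes with an NRF1 core had a median log2 fold change of -0.03 in WT liver (9 tested, 1 called), and those with an ETS site 0.00 (13 tested, 1 called). A match is a description of letters and does not show that a factor binds there.

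The 4 genes of complex II, the succinate dehydrogenase shared with the TCA cycle, differed little between diets in WT. Sdha, the flavoprotein subunit, was listed at 249 to 338 TPM on control diet and 256 to 320 TPM on alcohol (log2 fold change -0.06, 95% interval -0.34 to 0.23). Sdhb, the iron-sulphur subunit, had a log2 fold change of -0.01 (95% interval -0.34 to 0.32). Sdhc and Sdhd, the membrane anchors, had values of 0.05 (95% interval -0.18 to 0.28) and 0.03 (95% interval -0.21 to 0.28). The groups overlapped for all 4 genes.

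Isoforms of other tissues were scarce on both diets. Cox4i2, Cox6a2, Cox6b2, Cox7b2, Cox8b and Cox8c, isoforms known from lung, muscle, heart or testis, averaged below 1 TPM in both WT groups, and Cox7b2 and Cox8c were at 0 in all 8 libraries. Their partners Cox4i1, Cox6a1, Cox6b1, Cox7b and Cox8a had log2 fold changes between -0.02 and 0.06 on alcohol. The ATP synthase c subunit comes from 3 genes with the same mature protein. Atp5g3 held 59.6% to 60.9% of their summed TPM on control diet and 59.6% to 60.8% on alcohol, Atp5g1 22.4% to 23.4% and 23.8% to 25.3%, and Atp5g2 16.5% to 17.0% and 14.5% to 16.1%. None of the 3 was called for its level. Ndufa4 had a log2 fold change of -0.09 (SE 0.12), and Ndufa4l2, its hypoxia-induced relative, was below the level tested at 0.48 to 1.44 TPM.

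Among uncalled members of the other complexes, the smallest p values in WT belonged to Ndufv3 in complex I, Uqcrb in complex III, Atp5b in complex V and Sdhc in complex II. Ndufv3, an accessory subunit next to the NADH-oxidising site, lay at 78.4 to 132 TPM on control diet and 70.1 to 85.4 TPM on alcohol (log2 fold change -0.34, SE 0.15, adjusted p = 0.11 by limma, and -0.21 without control replicate 2). Uqcrb, the ubiquinone-binding protein of complex III, lay at 206 to 283 TPM and 267 to 299.5 TPM (0.28, SE 0.12, adjusted p = 0.10). Without control replicate 2, 7 genes were called in place of 3: Uqcrb, Atp5k, Atp5g1 and Ndufb8 were added as higher, with log2 fold changes of 0.38, 0.33, 0.30 and 0.35 and adjusted p values of 0.0204, 0.0444, 0.0463 and 0.0478. Without control replicate 4, 5 were called, with Ndufv3 and Ndufaf2 added as lower (-0.46 and -0.36, adjusted p = 0.0259 and 0.0457). The share of all genes called in these fits is not given here, so the counts are not read as a change particular to respiratory genes. Atp5k, Ndufb8 and Ndufaf2 were chosen after their values were seen.

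The 3 X-linked members were all tested in WT: Ndufa1 (log2 fold change -0.08, SE 0.16), Ndufb11 (0.13, SE 0.12) and Cox7b (-0.02, SE 0.13), none called. Ndufa1 and Ndufb11 are named for their chromosome, after their values were seen.

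Ndufs5 cannot be read from its own row. This complex I subunit was listed at 0 to 4.65 TPM on control diet and 0 to 1.65 TPM on alcohol, far below the class median. BC002163, annotated as a pseudogene with 99.4% identity over 319 bases of the Ndufs5 transcript, was listed at 76.0 to 113 TPM and 77.7 to 103 TPM in the same libraries. In libraries labelled RageΔMye the rows moved in opposite directions: Ndufs5 was listed at 0 in all 3 control libraries and at 69.4, 75.4 and 0 TPM on alcohol. BC002163 was at 19.3, 65.9 and 76.8 TPM in the control libraries and at 0 in all 3 alcohol libraries. Reads of this pair cannot be told apart with certainty, and both are given as uncertain. Ndufb4c, identical to Ndufb4 over its 390 bases, is uncertain for the same reason. In all, 20 of the 94 genes had a near-identical copy, 19 of them a pseudogene and 3 a copy listed in the tables. Ndufs5 and BC002163 were chosen after their values were seen.

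Genes that build and regulate the chain were read from separate lists, and their difference from the subunits was not tested. Of 44 assembly factors outside the prefixes, 13 were called lower in WT on alcohol and none higher, which is 29.5% against 17.9% of all genes tested, with a median log2 fold change of -0.24. The range on leaving out 1 library was 7 to 17 called lower, with 7 without alcohol replicate 1 or control replicate 3. Without genes that overlap on the opposite strand 8 were called lower, and in the joint fit none. Overlapping genes were not tested in the former fit, so the 8 may be out of fewer than 44 genes. Sdhaf1, which inserts iron-sulphur clusters into complex II, had 3.63, 4.74, 3.69 and 2.99 TPM on control diet and 1.27, 1.74, 1.33 and 1.10 TPM on alcohol. All alcohol libraries lay below all control libraries (log2 fold change -1.01, adjusted p = 0.00064 by limma). Cox19, a copper-handling factor for complex IV, had a mean of 48.1 ± 5.3 TPM on control diet and 26.7 ± 3.4 TPM on alcohol (SD, n = 4 each). Tmem126b, of the complex I assembly complex that also holds Ndufaf1, had 16.3 ± 1.9 and 9.43 ± 1.39 TPM, and its adjusted p was 0.0035.

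Of 18 regulators of mitochondrial biogenesis and mtDNA expression, 6 were called lower (33.3%, against 17.9% of all genes tested) and 2 higher (11.1%, against 13.3%). Esrra, a nuclear receptor that activates oxidative phosphorylation genes, had 3.65, 5.94, 5.15 and 2.51 TPM on control diet and 1.54, 2.16, 1.22 and 1.95 TPM on alcohol. The groups did not overlap (log2 fold change -0.93, adjusted p = 0.0083 by limma). Tfb1m, a mitochondrial rRNA methyltransferase, changed from 10.8 ± 1.6 to 5.89 ± 0.66 TPM, and Twnk, the mtDNA helicase, from 21.7 ± 1.7 to 12.9 ± 2.0 TPM (SD, n = 4 each). Neither pair of groups overlapped. Without opposite-strand overlaps 2 regulators were called lower and none higher, and in the joint fit 1 was called lower and none higher. Overlapping genes were not tested in the former fit, so fewer than 18 regulators may have been tested. Leaving out 1 library gave 4 to 6 called lower, and 1 in place of 2 called higher without alcohol replicate 1.

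The mitochondrial ribosome, which translates the mtDNA-encoded subunits, had 10 of 78 genes called lower and none higher. That share of 12.8% was under the 17.9% of all genes, and it ranged from 4 to 13 genes when any 1 library was left out: 4 without alcohol replicate 1 or 3 or control replicate 1 or 2, 5 without alcohol replicate 2 or 4, and 6 without control replicate 3. Without opposite-strand overlaps 2 were called lower, and in the joint fit none. Overlapping genes, Mrpl36 among them, were not tested in the former fit. The median log2 fold change of the 78 genes was -0.16, beside -0.05 for all genes tested, and 69 of the 78 values were below 0. Mrpl49 was the gene with the smallest p (39.2 ± 4.9 to 21.5 ± 2.5 TPM), followed by Mrpl36 and Mrpl34. Of 81 cytosolic ribosomal protein genes tested, 3 were called higher (Rpl30, Rpl3 and Rpl9) and none lower. That is 3.7%, under the 13.3% called higher among all genes tested. Their median log2 fold change was 0.15, and 74 of the 81 values were above 0. The count called higher was 10 without control replicate 2, 1 without control replicate 1 or 3 or alcohol replicate 1, 2 or 4, and 0 in the joint fit.

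Coenzyme Q, the carrier between complexes I or II and III, is made by enzymes that included a pair of paralogues called in opposite directions. Coq8b, a kinase-like protein of ubiquinone synthesis, rose from 4.08, 7.09, 4.99 and 6.92 TPM to 34.6, 16.3, 24.7 and 37.6 TPM (log2 fold change 2.07, adjusted p = 0.00034 by limma). Its paralogue Coq8a fell from 41.1, 82.8, 81.1 and 32.9 TPM to 13.3, 22.4, 14.5 and 18.6 TPM (-1.65, adjusted p = 0.0028). In both cases the groups did not overlap, and of the 12 genes tested 2 were called higher and 1 lower, or 25% against 31.2% of all genes. Of 19 TCA cycle genes 1 was called, or 5.26% against 31.2% of all genes. It was Idh2, mitochondrial NADP-dependent isocitrate dehydrogenase, which was higher on alcohol (0.77, adjusted p = 0.0045 by limma). Without control replicate 4, 3 TCA cycle genes were called higher, and in the joint fit none. Among 15 subunits, carriers and related proteins outside the prefixes 3 were called, or 20% against 31.2% of all genes. Sqor, which feeds electrons from sulphide into ubiquinone, was higher (0.62) and Prodh (-0.64) and Higd2a (-0.41) were lower.

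**Figure D4:**
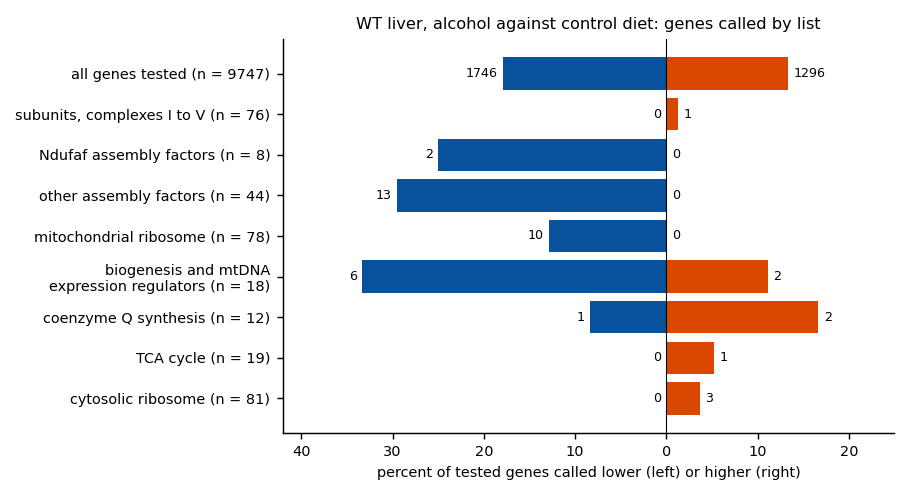
Percent of tested genes called lower (left, blue) and higher (right, orange) in WT liver on alcohol, for all genes tested and for each list, with the counts at the bar ends. Subunits of complexes I to V stand at 0 lower and 1 higher of 76, beside 1746 lower and 1296 higher of 9747 genes.

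In livers labelled RageΔMye the count of respiratory genes called depended on the fit. Of 86 genes tested none passed an adjusted p under 0.05 by limma, against 4 of 10689 genes in all (0.0374%). The unadjusted p was under 0.05 for 10 of the 86, all 10 higher on alcohol. Over all 10689 genes this held for 747, of which 426 were higher. The joint fit of 14 liver libraries shares 1 estimate of spread with WT. Fitted alone, the members' median standard error was 0.14 in WT and 0.57 for the RageΔMye label. The joint fit's adjusted p values may therefore be too small here. In it 6 of the 86 were called, all higher, while that fit called 6.21% of all genes, and 3.33% higher. These were Ndufc2 (adjusted p = 0.00044), Ndufs8 (0.0022), Atp5c1 (0.025), Atp5j (0.038), Ndufb5 (0.038) and Ndufa5 (0.039), of which Atp5j, Ndufb5 and Ndufa5 were chosen after their values were seen. The groups did not overlap for 6 of the 86, all higher on alcohol, while 11.7% of all tested genes had groups that did not overlap. The median log2 fold change was 0.33, beside 0.01 for all genes tested. Such a shift was not particular to these genes. The median was 0.49 for TCA cycle genes, 0.46 for cytosolic and 0.46 for mitochondrial ribosomal genes, and 0.21 for housekeeping genes. It was -0.04 for the biogenesis regulators and -0.21 for hepatocyte markers. By complex the median was 0.44 in complex I, -0.17 in complex II, 0.44 in complex III, 0.50 in complex IV and 0.37 in complex V. An opposite-strand exon overlap was present for 28 of the 94 members, Atp5j and Ndufb5 among them. The median was 0.73 over the 27 of them tested and 0.30 over the 59 tested members without one. Leaving out 1 library moved the median over all members between 0.15 and 0.51, the lowest without alcohol replicate 1. That library had the highest sum of the 94 genes, 10978 TPM, against 6565 to 8082 TPM on control diet. Hepatocyte markers summed to 60100 to 73167 TPM in the control libraries and to 54330 to 59103 TPM in the alcohol libraries, without overlap, and leukocyte and macrophage markers to 32.6 to 113 TPM and 12.0 to 73.5 TPM. Their part in the respiratory genes' values was not tested.

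Precision was low here, for the members and for all genes tested. The median standard error was 0.57, beside 0.84 over all genes tested. No member had an interval within 1.5-fold in either direction, and 0.524% of all genes tested had one. Between 14 and 23 of the 94 genes were listed at 0 in a library, against 3 or 4 in WT. In addition, 32 to 38 genes per library sat at whole multiples (within 0.01) of that library's most frequent value of 14.4 to 20.5 TPM. Ndufc2, a short accessory subunit of complex I, shows what this does to a value. Its level was 18.1, 20.5 and 14.4 TPM on control diet, which is 1 multiple in each library, and at 69.4, 45.2 and 87.4 TPM on alcohol, which is 4, 3 and 6 multiples. Its log2 fold change was 1.84 (SE 0.43, adjusted p = 0.27 by limma). Ndufc2 was chosen after its values were seen.

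The gene with the smallest p was Ndufs8, an iron-sulphur subunit of complex I, at 72.4, 41.1 and 28.8 TPM on control diet and 143, 166 and 146 TPM on alcohol. The groups did not overlap, but the adjusted p was 0.26 (log2 fold change 1.75, SE 0.40). In complex II it was Sdhb, at 122, 50.8 and 71.8 TPM against 225, 158 and 110 TPM, which overlapped (1.03, adjusted p = 0.67). Uqcrc1, a core protein of complex III, had a value of 1.33 (SE 0.60), Ndufa4 of complex IV 0.99 (SE 0.40) and Atp5c1, the γ subunit of the ATP synthase, 1.17 (SE 0.40), with adjusted p values of 0.67, 0.67 and 0.61. Without control replicate 2 the value of Uqcrc1 was 0.71, and without control replicate 3 that of Ndufa4 was 0.59. Ndufaf6 was listed at 0, 14.6 and 10.3 TPM with control feeding and at 0 in all 3 alcohol libraries. Sdha, Sdhc and Sdhd had log2 fold changes of 0.02, -0.73 and -0.37, none called. Cox7a1, called in WT, was listed at 0 in all 6 libraries labelled RageΔMye.

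By the mean over both diets, the 3 most abundant genes there were Atp5k, the e subunit of the ATP synthase, Atp5g3 and Uqcrh, the hinge protein of complex III. Atp5k was listed at 638, 217 and 608 TPM with control feeding and at 549.6, 531 and 513 TPM on alcohol. Atp5g3 lay at 561, 390.4 and 273 TPM and 694, 422 and 408 TPM, and Uqcrh at 398, 185 and 201 TPM and 416, 226 and 320.5 TPM. All 3 pairs of groups overlapped.

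The diet effects under the WT and RageΔMye labels were compared directly in 1 fit of the 14 liver libraries, with weights per label. Genotype and kind of library cannot be told apart in this difference, since the labels coincide with the gap in opposite-strand share, and Ager runs against them. None of 89 members was called for the difference by limma, against 61 of 12069 genes (0.505%). The unadjusted p was under 0.05 for 9 of the 89 and for 1026 of the 12069. The median standard error of the difference was 0.83, so that only large differences could be seen. For Ndufaf1 the difference (RageΔMye minus WT) was 0.98 (95% interval -0.75 to 2.70) and for Ndufaf4 0.13 (95% interval -1.39 to 1.65). Without RageΔMye control replicate 3, 2 members were called, Ndufa9 (5.04, adjusted p = 0.0044) and Ndufb5 (4.30, adjusted p = 0.0412), which were chosen after their values were seen. The share of all genes called in that fit is not given here.

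**Figure D5:**
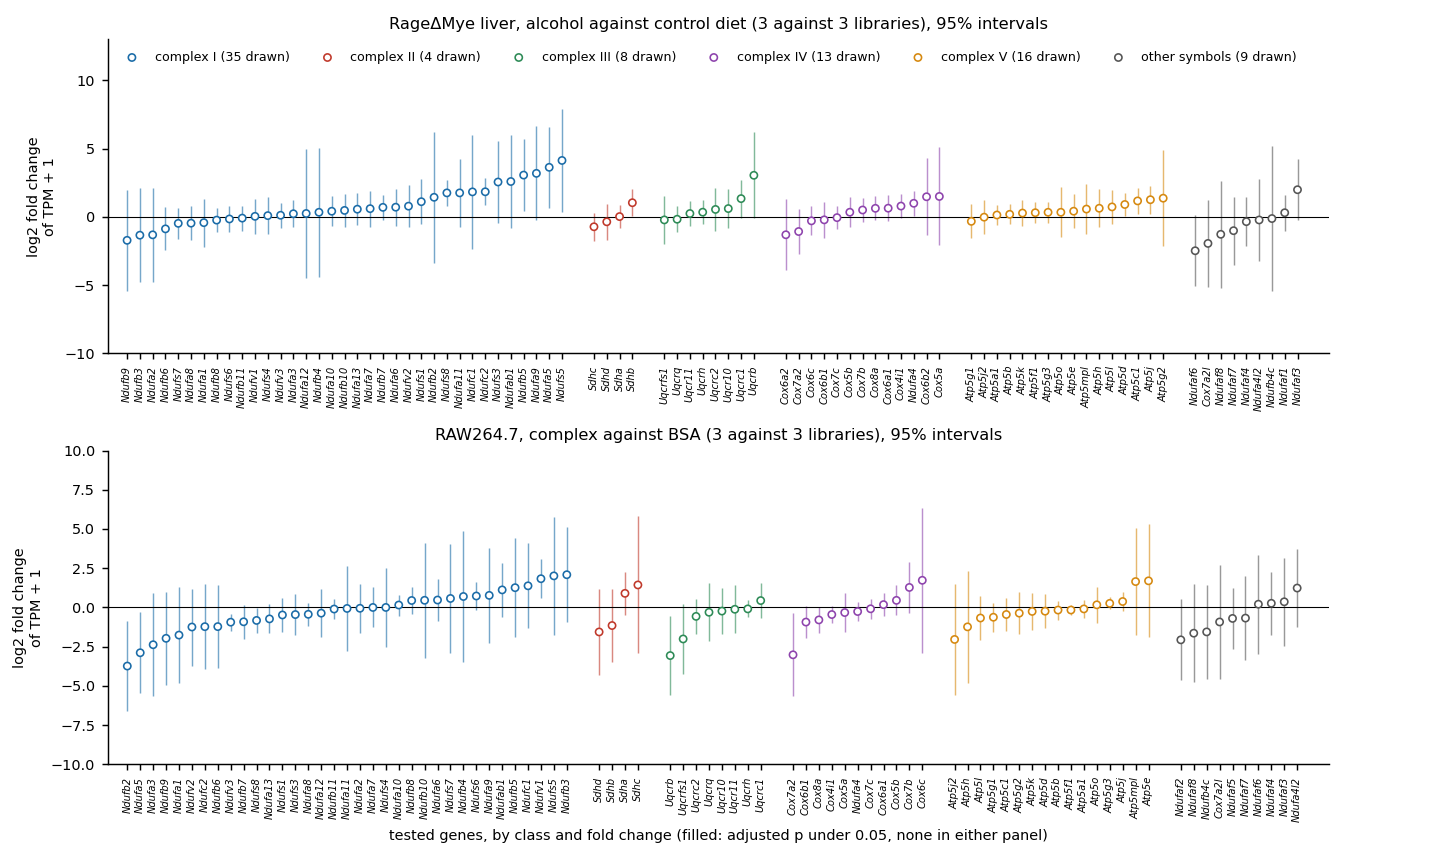
Log2 fold change of TPM + 1 (y axes) for the tested respiratory genes in livers labelled RageΔMye (top, alcohol against control diet, 86 genes) and in RAW264.7 cells (bottom, complex against BSA, 85 genes), sorted within each class, with 1 gene of each set not drawn. Lines are 95% intervals. Open points mark genes not called when each set was fitted alone, which is all of them, and most intervals span several units of log2.

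In RAW264.7 cells, 85 respiratory genes were tested and none was called after the complex, against 19 of 10559 genes (0.18%). At an unadjusted p under 0.05 there were 7, of which 1 was higher and 6 lower. Over all 10559 genes there were 877, of which 358 were higher and 519 lower. Groups did not overlap for 6 of the 85, with 2 higher and 4 lower, while 13.5% of all genes tested had groups that did not overlap. The median log2 fold change was -0.24, and -0.09 over all genes tested. It was -0.08 in complex I, -0.13 in complex II, -0.27 in complex III, -0.26 in complex IV and -0.20 in complex V. Leaving out 1 library moved the overall median between -0.42 and -0.13. The summed level of all 94 genes was 5536 to 7196 TPM with BSA and 5405 to 6218 TPM with the complex. Leukocyte and macrophage markers summed to 1084 to 1519 TPM and 1109 to 1421 TPM, with 5 and 4 of the 12 at 0 in every library of the group.

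Ndufv3 had the smallest p in complex I, at 157, 234 and 255 TPM with BSA and 92.6, 117 and 121 TPM with the complex. The groups did not overlap (log2 fold change -0.94, SE 0.23), but the adjusted p was 0.26 by limma. Ndufv1, the NADH-binding core subunit of the same module, was listed at 7.11, 8.13 and 9.76 TPM with BSA and at 62.7, 33.0 and 15.6 TPM with the complex (1.83, SE 0.53, adjusted p = 0.36), and it was chosen after its values were seen. Uqcrb was listed at 39.4, 11.1 and 13.4 TPM with BSA and 10.9, 0 and 0 TPM with the complex. These are 4, 1 and 1 multiples of the library's most frequent value against 1, 0 and 0. Cox7a2 lay at 29.5, 88.9 and 53.4 TPM and 0, 11.5 and 21.5 TPM (-3.02, SE 1.12, adjusted p = 0.52), and its value was -1.66 without complex replicate 1.

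Sdha, with the smallest p in complex II, was listed at 15.7, 3.52 and 16.9 TPM with BSA and 17.4, 18.2 and 23.8 TPM with the complex. The groups did not overlap, by a narrow margin (0.90, SE 0.59, adjusted p = 0.73 by limma), and without BSA replicate 2 the value was 0.25. Atp5g3 lay at 561, 511 and 467 TPM and 754, 517 and 591 TPM, which overlapped (0.26, SE 0.16, and 0.11 without complex replicate 1). Among the c subunit genes it held 74.2% to 87.7% of their summed TPM with BSA and 87.3% to 92% with the complex. Ndufaf2 was listed at 19.7, 33.3 and 26.7 TPM and 21.8, 0 and 10.8 TPM (-2.07, and -0.72 without complex replicate 2). Exons on the opposite strand overlapped 65.6% of its exon bases. The most abundant genes were Atp5k, at 819, 856 and 1387 TPM with BSA and 898, 1684 and 379 TPM with the complex, then Atp5g3 and Cox7c. The mean of Atp5k was 1021 ± 318 TPM with BSA and 987 ± 657 TPM with the complex (SD, n = 3 each), a spread within each group wider than the gap between them. Cox4i2, Cox6a2, Cox6b2, Cox7a1, Cox7b2, Cox8b and Cox8c were listed at 0 in all 6 RAW264.7 libraries.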

How the data were processed

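Illumina's TruSeq Stranded mRNA chemistry was used, per the labels' protocols. Per the submitters' processing notes the genome was mm10, with aligner, counting tool, strand setting and annotation not given in the sources used here. The authors deposited 2 tables with 24972 symbols, read as TPM because each column summed to 1000000 without whole numbers. The reads behind a value are unknown.

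Each genotype and the RAW264.7 table were fitted alone with limma 3.58.1 (R 4.3.3, intensity trend) on log2(TPM + 1), for genes averaging 1 TPM or more in either group, with Benjamini-Hochberg adjustment over all genes tested. Fits were tested on simulated data. Same-numbered libraries were compared for the RageΔMye label and RAW264.7, and they did not deviate together (r between -0.0254 and 0.0181). No pairing by number was seen there. Groups were small and many values sat at whole multiples, so this check cannot show that samples were unpaired. WT libraries were not compared in this way. Exon overlaps came from GENCODE vM21 and copies from blastn 2.17.0 (at least 90% identity over 50% of the transcript). Promoters came from RefSeq. The values of 1 member are not reported here.

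The members, classes and lists were chosen with earlier results of these data known. Named were called members, otherwise the smallest p per class, SDH genes, isoform pairs, the 3 highest in RageΔMye and RAW264.7, and up to 3 called genes per other list by p. Alternatives were other pseudocounts, filters and scalings, omitted libraries, a joint fit, a replicate block and no weights.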

Additional observations from a re-analysis of the deposited data

Results flagged for a closer look

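In groups of 4 libraries, a value was picked out when its gap to the nearest library was a larger part of the group's range than Dixon's 95% critical value allows. Among 70 groups looked at, 5 values were picked out, and chance picks about 1 in 20 groups. On control diet in WT liver, replicate 2 stood apart for Atp5g2 at 212 TPM, with the others at 160 to 169 TPM, and for Ndufa4 at 562 TPM, with the others at 402 to 429.5 TPM. On alcohol, replicate 2 stood apart for Ndufa4 at 438 TPM (others 412 to 415 TPM) and for Uqcrc1 at 180 TPM (others 158 to 161 TPM), and replicate 4 for Cox7c at 440.2 TPM (others 355 to 366 TPM).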

How the results depend on the processing

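In WT liver 3 members were called under pseudocounts of 0.1 and 10, no filter, quantile normalization, and TPM rescaled over genes with no opposite-strand exon overlap. The rescaled fit left out members with such an overlap, and 60 of the 86 members tested in WT had none. With a filter at 10 TPM 1 was called, since Cox7a1 and Ndufaf4 were then not tested, and with the joint fit of 14 liver libraries 1 was called, Cox7a1. Leaving out 1 library gave 2 to 7. In livers labelled RageΔMye the joint fit called 6, all higher, and 664 of 10689 genes in all, and leaving out 1 library gave 0. For the difference between genotypes, a fit with no library weights called 2 (Ndufc2 and Ndufs8), and leaving out 1 library gave 0 to 2. In RAW264.7 cells every alternative gave 0. The cause of these changes was not tested. Shares over all genes are not given for the fits without 1 library or without weights, so these counts are not set against a background. The replicate block called 0 members and 0 genes of the whole table in either set of 6 libraries. Without genes that overlap on the opposite strand, the members' share of TPM changed from 1.67% to 1.39% in WT control, from 0.711% to 1.29% in RageΔMye control and from 0.645% to 1.16% in RAW264.7 with BSA when TPM was rescaled, and to 1.17%, 0.538% and 0.491% when it was not. Depth behind TPM is unknown, and values on whole multiples limit what 6-library comparisons can show.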
